A study of Mus musculus with 4 samples.

Results

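Vascular smooth muscle cells of the mouse Achilles tendon were picked out of droplet-based single-cell RNA sequencing by their counts of unique molecular identifiers (UMIs), which stand for captured RNA molecules. A barcode, the tag of 1 droplet, was kept if it held 500 or more genes and 1000 or more UMIs, of which no more than 15% were mitochondrial. Members were chosen by their counts of 5 genes, with at least 3 UMIs of Myh11, at least 5 of Acta2, none of Cdh5, at most 1 of Ptprc and under 5 of Ckm, so levels of these genes are description only. This gave 856 members among 36052 filtered barcodes (2.37%), out of 38780 deposited ones. The study set injured tendon against uninjured tendon at 2 ages, as the labels give it, and each of its 4 groups was a single library. The groups were injured Achilles tendon of mice aged 6 to 8 weeks (injured adult), uninjured tendon of that age (adult control), injured tendon of mice at postnatal day 3 (injured neonate) and uninjured tendon of that day (neonate control). The source label of 1 adult library names tendon cells where the others name the tendon, and all were treated as the same tissue. Sources used here do not give the strain, the number of animals pooled in a library, the kind of injury, the time from injury to harvest, or whether an age counts to the injury or to the harvest. Injured animals could thus be older than their controls at harvest. With 1 library a group, no difference between groups has a replicate check, no test between groups was run, and every interval between libraries covers counting error only.

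Vascular smooth muscle cells form the wall of arteries, arterioles and veins and set vessel width by contracting. Their contraction runs on smooth muscle actin (Acta2) and myosin (Myh11), which are switched on by serum response factor and its coactivator myocardin at a DNA element called the CArG box. In injured vessels these cells are known to lower contractile genes and to divide and make matrix, and they keep a close kinship with pericytes, the mural cells of capillaries.

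The members held 69 barcodes in the injured adult library, 330 in the adult control, 155 in the injured neonate and 302 in the neonate control. Their median depth was 12936, 8150.5, 4954 and 9491 UMIs in that order. Summed over members, 1305721, 2895000, 918391 and 3473222 UMIs were available. Members of the injured adult library were thus the deepest and the fewest, and those of the injured neonate the shallowest. No barcode sequence was shared between members of different libraries. A doublet caller marked 6 members in the injured adult, 22 in the adult control, 24 in the injured neonate and 43 in the neonate control. Barcodes with Xist UMIs and no Y-linked UMI made up 92.8% of members in the injured adult, 91.5% in the adult control, 71% in the injured neonate and 0% in the neonate control. Barcodes with Y-linked UMIs and no Xist UMI made up 0%, 0%, 15.5% and 85.8%. The neonate control therefore differed from the other libraries in the sex of its cells, and every comparison that uses it cannot be told apart from that difference.

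The label was checked with Tagln, Cnn1 and Mcam, markers that the rule did not use. Tagln, an actin-binding protein of smooth muscle, had a UMI in 98.6% of members in the injured adult, 99.4% in the adult control, 100% in the injured neonate and 99.3% in the neonate control. Immune-rule barcodes (at least 3 Ptprc UMIs and no Cdh5, Pdgfra or Pdgfrb UMI), which should lack it, had one in 7.47%, 18.3%, 3.59% and 8.04%, at median depths of 8033, 9301.5, 5900 and 10084 UMIs. Those shares are the level that free RNA in droplets can give, and members stood far above it. Cnn1, a calponin that binds actin, was found in 40.6%, 55.8%, 62.6% and 53.3% of members, and in 0.467%, 1.3%, 0% and 0% of immune-rule barcodes, where 0 of 501 and 0 of 311 allow up to 0.599% and 0.965%. Mcam, an adhesion molecule of vessel walls, was found in 94.2%, 86.1%, 82.6% and 93.4% of members, against 3.5%, 0.87%, 2.99% and 5.47%. All 3 markers were above background in every library, and the data do not go against the label. Pericyte-rule barcodes, defined below, had Tagln in 46.3%, 53.2%, 32.5% and 23.5% and Mcam in 78%, 44.7%, 62.6% and 71.1%. They had Cnn1 in 0%, 0%, 0.493% and 0%, where 0 of 41, 0 of 47 and 0 of 149 allow up to 7.32%, 6.38% and 2.01%. Mcam was thus common in both mural classes. At the edge of the rule, 5 members in the injured adult, 10 in the adult control, 23 in the injured neonate and 22 in the neonate control had exactly 3 Myh11 UMIs. Barcodes just outside, with 2 Myh11 UMIs and enough Acta2, numbered 12, 10, 31 and 24.

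Promoters of contractile genes are shown because most of these genes differed between the adult libraries and the list holds textbook targets of CArG boxes. Windows from 250 bases before to 50 bases after the gene start were taken from RefSeq (GRCm38.p6), where 24 of the 28 contractile genes had an entry. Capitals mark exact CArG boxes in Myl9 and Ldb3, spelled CC, then 6 letters of A or T, then GG, a motif that reads the same on both strands. Myl9 (regulatory light chain of myosin) has an exact box that begins 161 bases before the start, at chr2:156775214-156775513 on the plus strand. Ldb3, a protein that links actin to the contractile anchor points, has one 35 bases before the start (chr14:34588632-34588931, minus strand). Myl9 also holds a stretch that differs by 1 letter, left in lower case. For Acta2, which has no exact box (chr19:34255324-34255623, minus strand) the capitals mark stretches that begin 84 and 34 bases before the start and each differ from the motif by 1 letter.
Myl9: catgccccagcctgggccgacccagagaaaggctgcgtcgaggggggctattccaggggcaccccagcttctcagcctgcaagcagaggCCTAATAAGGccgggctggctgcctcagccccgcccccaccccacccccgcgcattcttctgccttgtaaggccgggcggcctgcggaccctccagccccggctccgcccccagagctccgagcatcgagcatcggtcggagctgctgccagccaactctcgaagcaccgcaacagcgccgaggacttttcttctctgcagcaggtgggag
Ldb3: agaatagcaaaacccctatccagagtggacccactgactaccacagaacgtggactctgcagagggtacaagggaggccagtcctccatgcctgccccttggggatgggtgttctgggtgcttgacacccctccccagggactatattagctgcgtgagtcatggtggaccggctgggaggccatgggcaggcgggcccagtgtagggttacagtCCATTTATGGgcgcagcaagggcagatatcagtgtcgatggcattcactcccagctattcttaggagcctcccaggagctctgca
Acta2: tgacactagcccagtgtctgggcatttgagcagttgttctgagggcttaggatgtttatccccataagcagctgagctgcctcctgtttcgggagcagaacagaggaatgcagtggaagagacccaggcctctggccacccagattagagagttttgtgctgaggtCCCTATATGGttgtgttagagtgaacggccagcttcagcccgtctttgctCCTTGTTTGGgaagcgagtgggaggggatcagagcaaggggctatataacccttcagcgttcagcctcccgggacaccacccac
An exact box lay in 16.1% of the 31 windows of contractile genes, those of Myl9, Ldb3, Vcl and Myl6, and in 1.63% of all 32851 windows of this length. By gene, a box was found in 4 of 24, since the 2 windows of Ldb3 overlap and hold the same box. Windows of the same gene are thus not independent. With at most 1 other letter the shares were 22.6% and 9.98%. A match is a description of the letters only, and their part in the values below was not tested.

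Vascular smooth muscle made up a smaller share of the injured libraries than of the controls. It was 1.49% of 4625 filtered barcodes in the injured adult (exact binomial 95% interval 1.16 to 1.88), against 5.40% of 6113 in the adult control (4.85 to 5.99). At the neonatal age it was 1.04% of 14885 barcodes in the injured library (0.885 to 1.22), against 2.90% of 10429 in the control (2.58 to 3.24). The intervals of injured and control libraries did not overlap at either age, and the adult control stood highest. With every barcode thinned to 4000 UMIs and the rule applied again, the shares were 1.23%, 5.39%, 0.684% and 2.36% in the same order of libraries. The shares depend on which other cells the digestion released, and fewer smooth muscle cells cannot be told apart from more cells of other types.

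Dividing members were frequent in all libraries except the adult control. Barcodes with at least 2 UMIs of 20 genes of the G2 and M phases, the end of the cell cycle, made up 40.6% of members in the injured adult (28.9 to 53.1) and 2.12% in the adult control (0.857 to 4.32). They made up 17.4% in the injured neonate (11.8 to 24.3) and 37.1% in the neonate control (31.6 to 42.8). After thinning to 4000 UMIs the shares were 11.1% of 45 members, 0.717% of 279, 12.5% of 72 and 20.5% of 229. The adult control stayed lowest at equal depth, and the intervals of the other 3 libraries then overlapped. Pericyte-rule barcodes of equal depth had 17.6%, 2.56%, 28.4% and 29.9%, and fibroblast-rule barcodes 17.1%, 0.542%, 7.16% and 15.8%, so the low value of the adult control was not particular to smooth muscle.

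**Figure D1:**
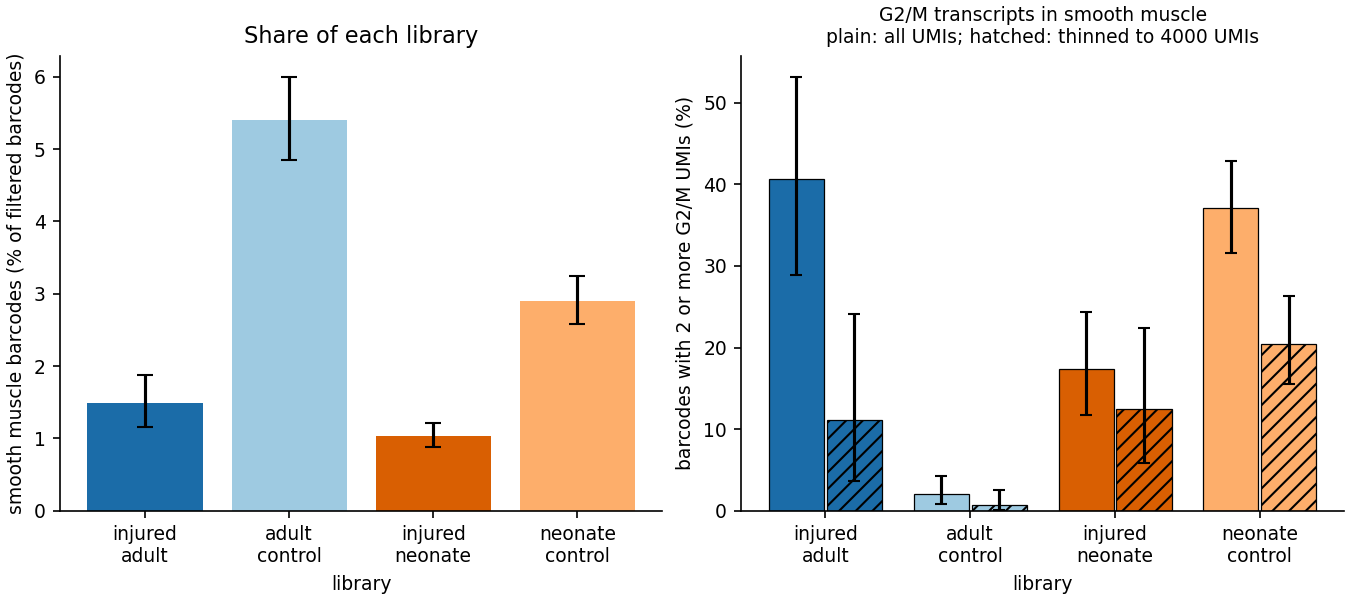
Share of filtered barcodes that met the vascular smooth muscle rule (percent) and share of these members with at least 2 UMIs of G2 and M phase genes (percent), from all UMIs (plain bars) and after thinning to 4000 UMIs (hatched bars), per library, with exact binomial 95% intervals as lines. The adult control has the highest share of smooth muscle, 5.40%, and the lowest share of dividing members, 2.12% and 0.717%.

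UMIs were summed over the members of each library and given per 1000000 UMIs (CPM), and libraries were compared by the log2 ratio of CPM with 0.5 counts added. Called means at least 2-fold apart, among 7026 genes with a mean of at least 20 CPM over the 4 libraries. Injured adult members had 1207 genes higher (17.2%) and 733 lower (10.4%) than adult control members. Injured neonate members had 396 higher (5.64%) and 334 lower (4.75%) than neonate control members. Adult control members had 560 higher (7.97%) and 787 lower (11.2%) than neonate control members. The higher genes were 62.2%, 54.2% and 41.6% of the calls in these comparisons, and 44.7%, 40.6% and 51.1% with TMM scaling factors. With 5 counts added they were 69.3% in neonatal injury, and with no filter on low genes 72.9%, 74.6% and 34.8%. TMM factors moved the median over all genes in the adult injury comparison from 0.18 to -0.07. The age comparison shares the adult control with the adult injury comparison and the neonate control with the neonatal one, so a high or low value in a control appears in both.

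Most genes of the contractile apparatus were lower in injured adult members. Of 26 contractile genes outside the rule, 15 were called lower and 0 higher in injured adult members, where 10.4% and 17.2% of all genes were, and the median log2 ratio was -1.66 beside 0.18 for all genes. With barcodes thinned to 4000 UMIs before the rule was applied, 10 were lower and 0 higher and the median was -0.72. Without members that had G2 and M phase UMIs, 14 were lower and 0 higher and the median was -1.17. The direction held in these settings while the size did not. Since the rule sets a minimum of Myh11 and Acta2 UMIs, a deeper barcode can pass at a lower level of contractile RNA, and the injured adult members were the deepest.

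Tagln had 1506 CPM in the injured adult and 11441 CPM in the adult control, a log2 ratio of -2.93 (-2.99 to -2.86), and 5699 CPM in the injured neonate and 7194 CPM in the neonate control. Across the alternative settings its adult injury ratio lay between -3.18 and -2.18. Cnn1 had 57.4, 433, 383 and 239 CPM in the injured adult, adult control, injured neonate and neonate control. The injured adult was the low library for both, and the adult control the high one. Tpm2, a tropomyosin that lies along actin, had 440, 4463, 1976 and 2628 CPM in the same order, with an adult injury ratio of -3.34 (-3.46 to -3.22). Myl9 had 720, 4083, 2648 and 2017 CPM, and the leiomodin Lmod1, which starts actin filaments, had 162, 977, 257 and 225 CPM. Sorbs2, an adaptor at actin attachment sites, had 200 CPM in the injured adult and 1602 CPM in the adult control, and 433 and 233 CPM in the injured and control neonate. Each of these genes was lowest in the injured adult and highest in the adult control.

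Other structural genes differed less between injured and control members. Des, the muscle intermediate filament, had 345 CPM in the injured adult, 319 CPM in the adult control, 93.6 CPM in the injured neonate and 127 CPM in the neonate control. Vcl, which ties actin to adhesion sites, had 625, 490, 711 and 533 CPM. Cald1, a caldesmon that covers actin, had 2331, 2721, 2778 and 2311 CPM, and Actn1, an actin crosslinker, had 558, 580, 599 and 430 CPM. None of these 4 genes was called between the injured and control libraries at either age. Mcam was also flat, at 558, 432, 448 and 429 CPM.

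**Figure D2:**
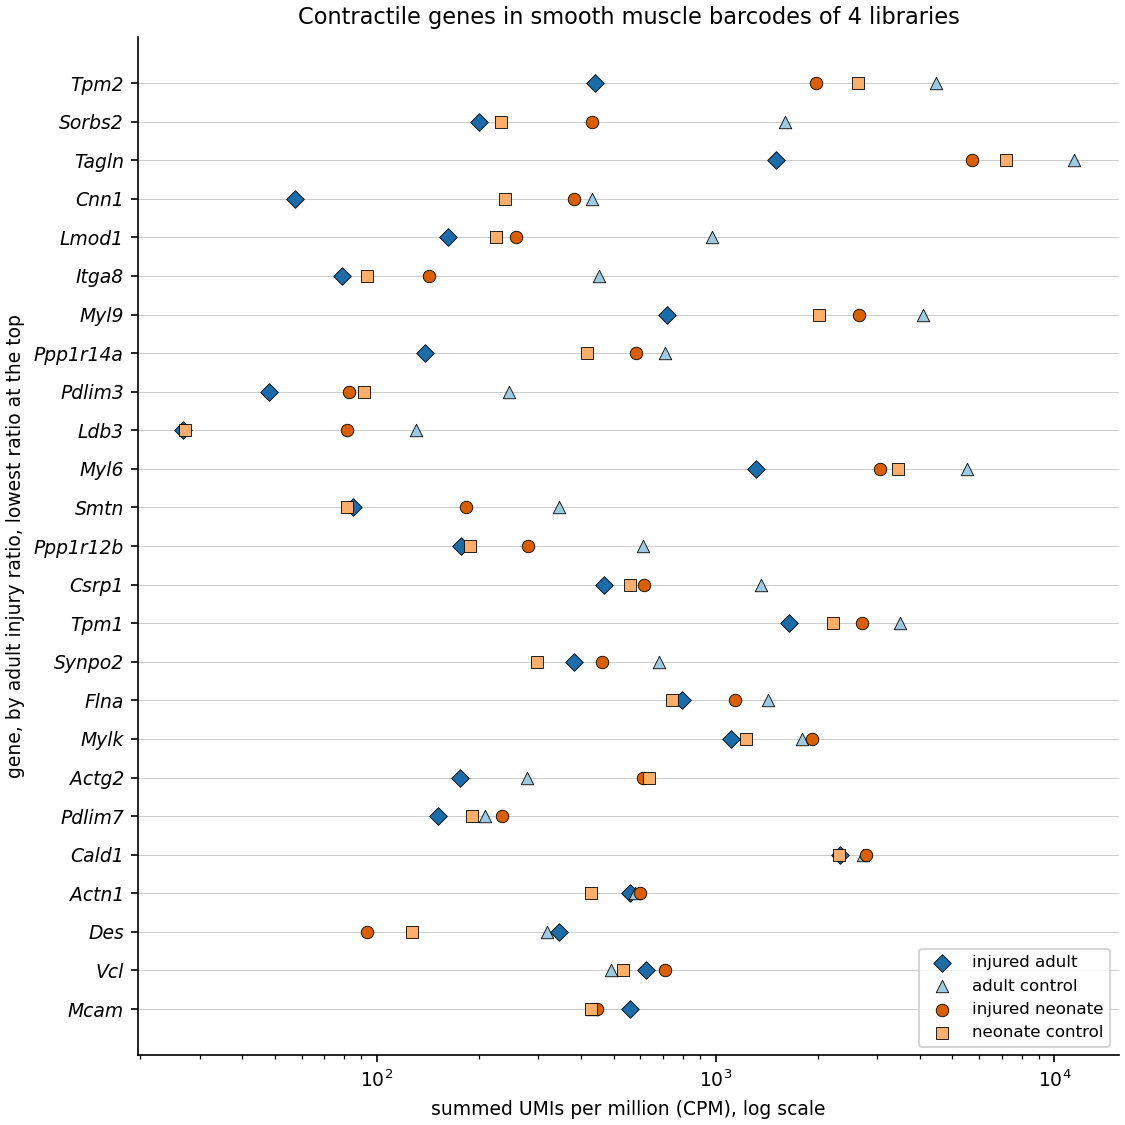
Level of 25 contractile genes outside the rule, as summed UMIs in CPM (log scale) over vascular smooth muscle members of each of the 4 libraries, ordered by the ratio of injured adult to adult control with the lowest at the top. Tpm2, at the top, has 440 CPM in the injured adult and 4463 CPM in the adult control, while Mcam, at the bottom, has 558 and 432 CPM.

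In neonates the contractile genes did not go down as a group with injury. Their median log2 ratio was 0.35, with 2 called higher and 0 lower, beside 5.64% and 4.75% of all genes and a median of 0.04. The pair called higher was Smtn, the smooth muscle protein smoothelin, and Ldb3. Smtn had 184 CPM in the injured neonate and 81.8 CPM in the neonate control (ratio 1.17, 0.89 to 1.45), and 85 CPM in the injured adult and 345 CPM in the adult control. Ldb3 had 81.7 and 27.1 CPM in the injured and control neonate, and 26.8 and 131 CPM in the injured and control adult. For both genes the injured library was above its control in neonates and below it in adults, a difference that was not tested. Median depth was 4954 UMIs in injured neonate members and 9491 in neonate control members. A shallower barcode needs a higher level of Myh11 and Acta2 to pass the rule, which could hide a drop in injured neonate members. The alternative settings include thinning to equal depth. Across them, neonatal injury ratios lay between 0.55 and 0.85 for Cnn1 and between 0.26 and 0.52 for Myl9. Those of Des, Tagln, Tpm2, Pdlim3 and Myl6 stayed negative, the lowest being -0.55 for Des. No contractile gene outside the rule was thus 2-fold lower in any of these settings. Whether depth hid a smaller drop was not tested.

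Between the controls, the adult library was above the neonate library for most contractile genes. The median was 0.81 beside -0.09 for all genes, with 11 of 26 called higher and 1 lower, where 7.97% and 11.2% of all genes were. Sorbs2 had the largest age ratio of the list, 2.78 (2.67 to 2.89), followed by Itga8, an integrin of smooth muscle, at 2.28, with 454 CPM in the adult control and 93.3 CPM in the neonate control. Actg2, the gamma actin of smooth muscle, was the exception, with 278 CPM in the adult control and 638 CPM in the neonate control, a ratio of -1.20 (-1.32 to -1.08). Thinning gave a median of 0.51 with 8 genes higher and 1 lower.

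**Figure D3:**
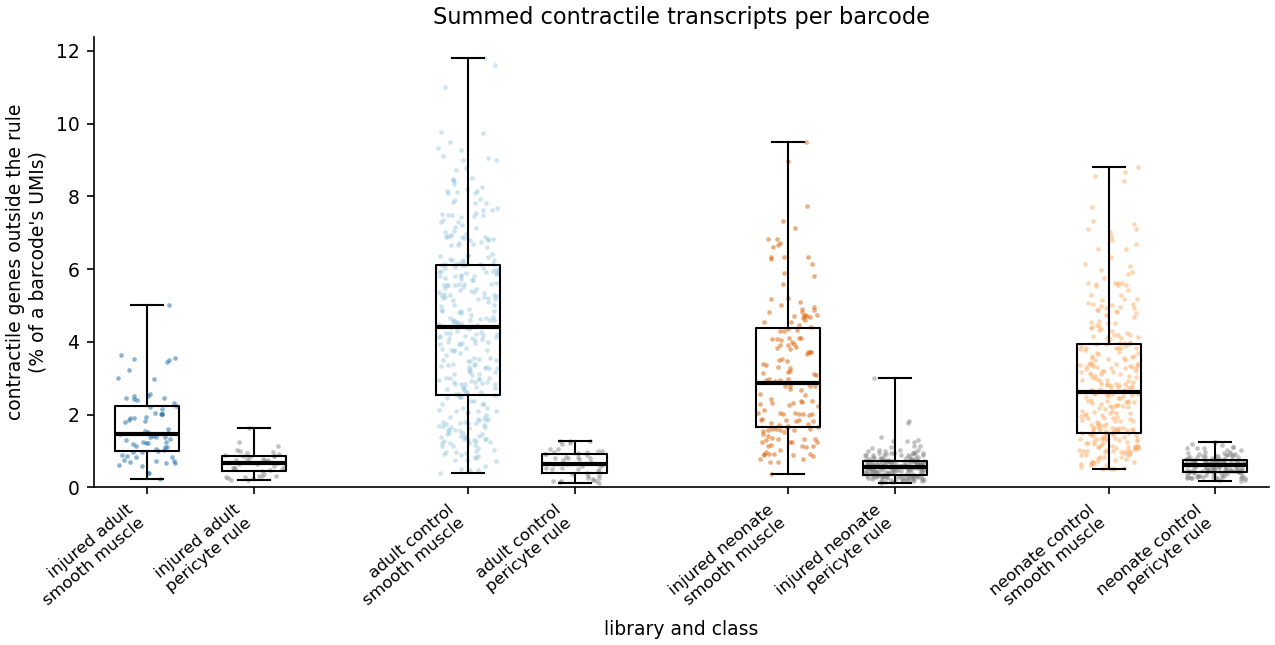
Sum of the contractile genes outside the rule in each barcode, as a percentage of its UMIs, for vascular smooth muscle members and pericyte-rule barcodes of each library. Points are barcodes, boxes hold the quartiles with the median as a thick line, and whiskers reach the lowest and highest barcode. Medians of members are 1.47% in the injured adult, 4.42% in the adult control, 2.88% in the injured neonate and 2.61% in the neonate control, and those of pericyte-rule barcodes are 0.675%, 0.634%, 0.574% and 0.617%.

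Barcode by barcode, the contractile sum had a median of 1.47% of UMIs in injured adult members and 4.42% in adult control members. It was 2.88% in injured neonate members and 2.61% in neonate control members. Pericyte-rule barcodes, which the rule itself holds to few Myh11 and Acta2 UMIs, had medians of 0.675%, 0.634%, 0.574% and 0.617% in the injured adult, adult control, injured neonate and neonate control. Members thus varied between libraries over a wider range than pericyte-rule barcodes did.

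Myocd, the coactivator that drives these genes, followed them in adults. It had 60.5 CPM in the injured adult, 344 in the adult control, 167 in the injured neonate and 130 in the neonate control, an adult injury ratio of -2.50 (-2.86 to -2.17). Foxc1, a forkhead factor of mural cell development, had 35.2, 218, 107 and 70.3 CPM, with the same order of libraries. Zeb2, a repressor of the epithelial state, was higher with injury at both ages, at 1305 and 584 CPM in the injured and control adult and 1623 and 675 CPM in the injured and control neonate. Klf2, a factor that responds to blood flow in endothelium, was lower with injury at both ages, at 293 and 815 CPM in adults and 204 and 964 CPM in neonates. It also differed over all filtered barcodes, at 338 and 836 CPM in adults and 502 and 1347 CPM in neonates. Of 18 tested transcription factors, 4 were called higher and 5 lower in adult injury (median 0.24), 3 and 1 in neonatal injury (0.39), and 2 and 1 between adult and neonate controls (0.11). Over all genes, 17.2% were higher and 10.4% lower in adult injury, 5.64% and 4.75% in neonatal injury, and 7.97% and 11.2% between controls. The list counts in the paragraphs that follow stand against these shares.

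Notch signalling passes between neighbouring cells and, through Notch3, keeps arterial smooth muscle in its state. Notch3, the receptor of mural cells, had 973 CPM in the injured adult, 728 in the adult control, 1201 in the injured neonate and 633 in the neonate control, and was not called in any comparison. Its target Heyl was above the control with injury at both ages, at 88.1 and 31.8 CPM in adults (ratio 1.47) and 182 and 65.9 CPM in neonates (1.46). Hes1, another target, was below it at both ages, at 196 and 663 CPM in adults and 171 and 602 CPM in neonates. Hey2, a target that marks arteries, had 21.4 and 70.5 CPM in the injured and control adult and 65.3 and 27.9 CPM in the injured and control neonate. The 3 Notch targets thus gave 3 different patterns. Over the 10 tested members of the pathway, 1 was higher and 2 lower in adult injury, 2 and 1 in neonatal injury, and 1 and 1 between adult and neonate controls.

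Among calcium handling genes, phospholamban differed most with age. Pln, which encodes it, restrains the calcium pump of the sarcoplasmic reticulum and had 307 CPM in the adult control and 3.46 CPM in the neonate control, a ratio of 6.41 (5.66 to 7.43). It had 26 CPM in the injured adult and 19.6 CPM in the injured neonate, so injury ratios were -3.54 in adults and 2.48 in neonates. Ryr2, a calcium release channel, had 36, 268, 133 and 127 CPM in the injured adult, adult control, injured neonate and neonate control. The adult control was the high library for both genes. Kcnmb1, the beta subunit that tunes the large-conductance potassium channel in smooth muscle, had 12.3 and 62.5 CPM in the injured and control adult and 25 and 13 CPM in the injured and control neonate. In the other direction, Abcc9, a subunit of the ATP-sensitive potassium channel that pericytes carry in quantity, had 402 and 127 CPM in the injured and control adult and 332 and 143 CPM in the injured and control neonate. Of 21 tested genes of this list, 3 were higher and 10 lower in adult injury (median -0.95), 3 and 0 in neonatal injury (0.49), and 7 and 0 between adult and neonate controls (0.45). The adult injury median did not keep its sign after thinning, when it was 0.09 with 6 higher and 5 lower.

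Among receptors for vasoactive signals, P2rx1, the ATP-gated channel of sympathetic vasoconstriction, had 11.5 CPM in the injured adult, 178 in the adult control, 84.9 in the injured neonate and 54.4 in the neonate control. Adra1a, the alpha-1A adrenergic receptor, had 19.1, 109, 47.9 and 49.2 CPM. Both were lowest in the injured adult and highest in the adult control. Agtr1a, the angiotensin II receptor, ran the other way in adults, with 45.2 CPM in the injured and 11.4 CPM in the control library. Adra2a, the alpha-2A adrenergic receptor, was higher with injury at both ages, at 274 and 19 CPM in the injured and control adult (ratio 3.84, 3.44 to 4.29) and 149 and 24.5 CPM in the injured and control neonate (2.60, 2.21 to 3.02). Adra2a was well above its level over all filtered barcodes, 18.8, 1.78, 12.4 and 5.46 CPM in the injured adult, adult control, injured neonate and neonate control. Pericyte-rule barcodes had 67.5, 14.7, 162 and 38.4 CPM, also higher with injury at both ages, and above members in the neonatal libraries. The gene was thus not particular to smooth muscle. Gucy1a1, a subunit of the nitric oxide receptor, had 257, 624, 419 and 282 CPM. Over 19 tested genes of the list, which does not hold Adra2a, 2 were higher and 6 lower in adult injury (median -0.28), 1 and 1 in neonatal injury (0.48), and 6 and 2 between adult and neonate controls (0.43). Thinning left 2 higher and 4 lower in adult injury with a median of 0.02.

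Matrix genes of the vessel wall were higher in injured adult members, and elastin stood apart in neonates. Eln, the core of elastic fibres, had 4994 CPM in the injured neonate and 1353 CPM in the neonate control (ratio 1.88, 1.82 to 1.94), and 850 CPM in the injured adult and 395 CPM in the adult control (1.11, 0.98 to 1.23). Members exceeded the level over all filtered barcodes in each library, which was 627 and 458 CPM in the injured and control neonate and 369 and 137 CPM in the injured and control adult. Elastin was thus highest in injured neonate members. Of 36 matrix genes, 22 were called higher and 3 lower in adult injury (median 1.55), where 17.2% and 10.4% of all genes were and the median was 0.18. They were 4 and 2 in neonatal injury (0.50), where 5.64% and 4.75% of all genes were, and 5 and 15 between adult and neonate controls (-0.76), where 7.97% and 11.2% were. Counts of the lists that follow stand against these same shares.

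Most matrix genes were lower in members than over all filtered barcodes, 29 of 36 in the injured adult, 28 in the adult control, 30 in the injured neonate and 32 in the neonate control. Postn, periostin, had 1909 CPM in injured adult members, 60.1 in the adult control, 956 in the injured neonate and 758 in the neonate control. All filtered barcodes had 3586, 288, 2523 and 2061 CPM. Tnc, tenascin C of healing tissue, had 1134, 55.6, 437 and 205 CPM in members and 1297, 95.6, 382 and 351 CPM in all barcodes. Col3a1, a fibrillar collagen, had 6881, 1152, 4959 and 2312 CPM in members and 12109, 2119, 10625 and 7689 CPM in all barcodes. Members and all barcodes had the same order of injured and control libraries for these 3 genes, and the part of free RNA or of fibroblasts caught in the same droplet was not tested. Dcn, decorin, had 579, 2501, 388 and 258 CPM in members and 2117, 13925, 2116 and 1658 CPM in all barcodes, and its adult injury ratio of -2.11 turned to 0.20 without doublets. Pdgfra, the receptor that marks fibroblasts, had a UMI in 13, 23, 10 and 36 members, and without these members 22 matrix genes were higher and 4 lower in adult injury, with a median of 1.44.

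In the basement membrane, the sheet that wraps each smooth muscle cell, chains differed between the adult libraries in opposite directions. Lama5, a laminin chain of arterial walls, had 54.4 CPM in the injured adult and 225 in the adult control, and 119 and 109 CPM in the injured and control neonate. Lamb1 had 146 and 9.67 CPM in the injured and control adult (ratio 3.89, 3.33 to 4.54) and 45.7 and 91 CPM in the injured and control neonate, and Lamb2 had 126 and 261 CPM in adults and 107 and 99.3 CPM in neonates. Col4a1, the network collagen, had 1904, 646, 1527 and 1769 CPM, above the 382, 320, 656 and 868 CPM of all barcodes. The adult control was thus low in Lamb1 and Col4a1 and high in Lama5 and Lamb2. Of 16 tested genes, 6 were higher and 2 lower in adult injury (0.73), 0 and 0 in neonatal injury (0.16), and 2 and 5 between adult and neonate controls (-0.18).

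Genes that mark modulated smooth muscle in diseased vessels were mostly higher in injured adult members, with 13 of 21 called higher and 4 lower (median 1.41). Cd44, the hyaluronan receptor, had 887 CPM in the injured adult and 57.7 CPM in the adult control, and 290 and 305 CPM in the injured and control neonate. Cthrc1, a secreted protein of matrix-forming cells, had 116, 1.73, 66.4 and 152 CPM in members, and 664, 27.5, 682 and 673 CPM in all barcodes. S100a4 went the other way, with 160 and 709 CPM in the injured and control adult. Without members with a Pdgfra UMI, 8 were higher and 3 lower, with a median of 0.66. Neonatal injury gave 3 higher and 5 lower (-0.19) and age 3 and 11 (-1.06). Spp1, osteopontin, had 96.5, 48, 4.36 and 1047 CPM, highest in the neonate control. Its UMIs lay in 33 of 302 neonate control members.

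Pericyte markers did not form a common pattern, with 6 of 15 higher and 1 lower in adult injury (median 0.27), 3 and 0 in neonatal injury (0.22) and 1 and 1 between controls (-0.17). Rgs5, a regulator of G-protein signalling in mural cells, had 4581 CPM in the injured adult, 2046 in the adult control, 4216 in the injured neonate and 2586 in the neonate control. Pdgfrb, the receptor that recruits mural cells, had 698, 248, 432 and 198 CPM. Both were higher in the injured library at each age, though Rgs5 in neonates, at 0.71 (0.65 to 0.76), was not called.

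Under 3 Rgs5 UMIs were found in more members of the adult control than of the other libraries. At least 3 Rgs5 UMIs were found in 85.5% of members in the injured adult, 48.5% in the adult control, 89% in the injured neonate and 84.8% in the neonate control. Within the adult control, the 160 barcodes with at least 3 Rgs5 UMIs and the 170 with fewer had median depths of 7790 and 8436.5 UMIs. Tagln had 8873 CPM in those with at least 3 and 13985 CPM in those with fewer, Cnn1 had 274 and 591 CPM, and Pln had 207 and 406 CPM. Abcc9 had 189 CPM with at least 3 and 66.7 CPM with fewer, and Kcnj8, its channel partner, had 103 and 15.1 CPM. Barcodes with at least 3 Rgs5 UMIs were thus lower in contractile genes and higher in channel genes of pericytes, a description within 1 library. In the injured adult, Tagln had 1438 CPM in the 59 members with at least 3 and 1851 CPM in the 10 with fewer, both below either set of the adult control. In the neonate control, Tagln had 6839 CPM in the 256 with at least 3 and 9568 CPM in the 46 with fewer, and Kcnj8 had 73.2 and 19.9 CPM. Both genes ran the other way in the injured neonate. There Tagln had 5831 CPM in the 138 with at least 3 and 4495 CPM in the 17 with fewer, and Kcnj8 had 85.8 and 110 CPM.

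**Figure D4:**
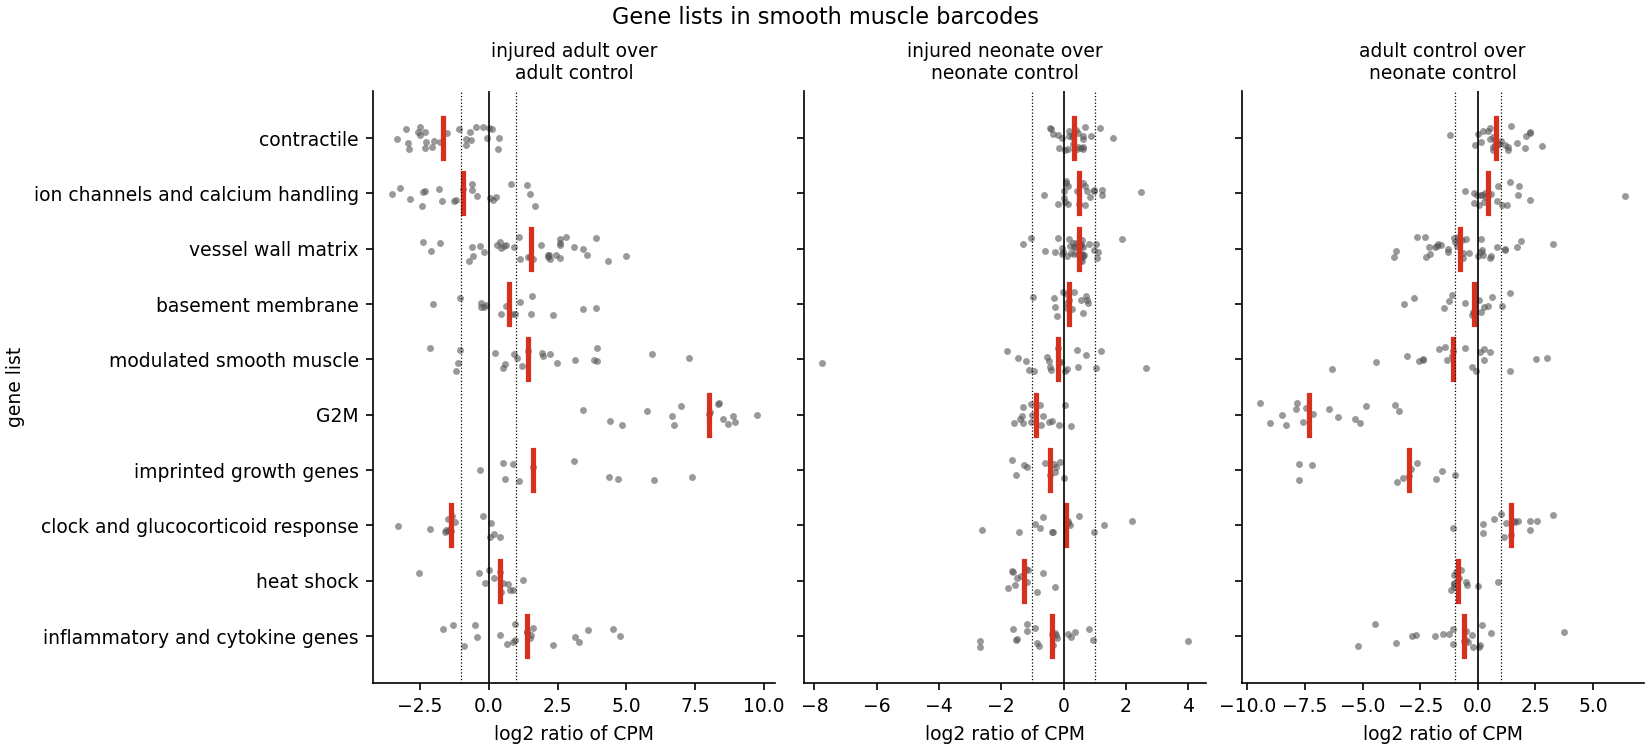
Log2 CPM ratio of each tested gene (points) and its median (thick line) in 10 of the gene lists in vascular smooth muscle members, for injured adult over adult control, injured neonate over neonate control and adult control over neonate control, with dotted lines at 2-fold. The contractile list lies at -1.66 and the vessel wall matrix list at 1.55 in adult injury, against 0.35 and 0.50 in neonatal injury.

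Imprinted growth genes, which are known to be turned down after birth in many tissues, were lowest in the adult control. Dlk1, a Notch-like protein of immature cells, had 119 CPM in the injured adult, 4.49 in the adult control, 355 in the injured neonate and 1028 in the neonate control. The noncoding H19 had 375, 2.07, 387 and 483 CPM and Meg3 had 2109, 249, 1448 and 1573 CPM. All filtered barcodes had 94.1, 4.13, 461 and 1821 CPM of Dlk1 and 831, 6.09, 1995 and 1401 CPM of H19, so the low adult control was seen there too. Of 11 tested members, 0 were higher and 10 lower between adult and neonate controls (median -3.00), 7 higher and 0 lower in adult injury (1.62), and 0 and 4 in neonatal injury (-0.43).

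Most tested genes of a list for the daily clock and glucocorticoid response were higher in the adult control than in the neonate control and the injured adult. Dbp, a clock output factor, had 16.1 CPM in the injured adult, 161 in the adult control, 40.3 in the injured neonate and 16.4 in the neonate control. Klf9, a glucocorticoid target, had 492, 1239, 396 and 373 CPM, and Zbtb16, another, had 54.4, 240, 7.62 and 50.1 CPM. Of 15 tested genes, 11 were higher and 1 lower between adult and neonate controls (1.45), 0 and 10 in adult injury (-1.37), and 2 and 2 in neonatal injury (0.09). Arntl, a clock gene that these tested genes do not include, ran the other way in adults. With dividing members left out, it had 77.2 CPM in the injured adult and 6.74 CPM in the adult control (ratio 3.50, 2.69 to 4.39). The list counts thus do not stand for all clock genes. All filtered barcodes had 27.8, 194, 30 and 12.6 CPM of Dbp, and the hour of harvest is not given in the sources used here.

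Stress genes separated the neonatal libraries. Of 12 heat shock genes, 0 were higher and 9 lower in the injured neonate than in its control (median -1.28), against 1 and 1 in adult injury (0.42) and 0 and 5 between adult and neonate controls (-0.88). Hsp90aa1, a chaperone, had 183 CPM in the injured neonate and 628 CPM in the neonate control, and 361 and 358 CPM in the injured and control adult. All filtered barcodes had 173 and 711 CPM of it in the injured and control neonate, and the part of tissue handling was not tested. Among 16 immediate early genes, 1 was higher and 7 lower in adult injury (-0.87), 0 and 5 in neonatal injury (-0.65), and 1 and 2 by age (0.27). Junb, a transcription factor of this class, had 1109, 2792, 972 and 2793 CPM, lower in both injured libraries.

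Inflammatory genes were more often higher in injured adult members and more often lower in injured neonate members than in their controls, a difference between ages that was not tested. Of 21 tested genes, 11 were higher and 2 lower in adult injury (median 1.38), against 1 and 7 in neonatal injury (-0.36) and 1 and 10 by age (-0.59). Ccl2, a chemokine that draws monocytes, had 193 CPM in the injured adult and 72.9 CPM in the adult control, and 135 CPM in the injured neonate and 865 CPM in the neonate control. Il1r1, the receptor of interleukin 1, had 810, 162, 234 and 214 CPM in members and 192, 100, 51.3 and 63 CPM in all barcodes. Cxcl2, a neutrophil chemokine, had 113, 4.84, 80.6 and 181 CPM in members and 946, 68.7, 280 and 339 CPM in all barcodes. Immune markers summed over the list were 351 CPM in injured adult members, 23.8 in the adult control, 149 in the injured neonate and 32.5 in the neonate control, against 3718, 1004, 1482 and 1157 CPM in all barcodes, and their part in these values was not tested. Ccl19, a lymphoid chemokine, had 29.4 and 1.73 CPM in the injured and control neonate (ratio 4.00, 2.78 to 5.66).

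Growth factor genes were mixed. Pdgfd, a ligand of the PDGF receptor, had 60.5 CPM in the injured adult, 302 in the adult control, 120 in the injured neonate and 39.2 in the neonate control. Of 19 tested genes of the list, 5 were higher and 5 lower in adult injury (-0.34), 3 and 0 in neonatal injury (0.34), and 4 and 4 by age (0.30). The adult injury median turned to 0.51 after thinning. Id1, a target of BMP signalling, had 48.2, 371, 69.7 and 153 CPM. Over 17 tested genes of the TGF-beta and BMP list, 3 were higher and 3 lower in adult injury (0.00), 0 and 1 in neonatal injury (0.00), and 3 and 2 by age (0.32). Interferon genes had 5 higher and 2 lower in adult injury (0.66), 3 and 0 in neonatal injury (0.00) and 2 and 2 by age (0.08), of 11 tested, and glycolysis genes 1 and 1 (-0.09), 1 and 1 (-0.36) and 1 and 0 (0.19), of 10 tested.

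Ratios of single genes were also ranked in each comparison. In adult injury the 10 highest were cell cycle genes, among them Cenpf, a kinetochore protein, with 149 CPM in the injured adult and 0 UMIs in the adult control, at least 144-fold higher at a floor of 3 counts per library. Its UMIs lay in 10 of the 69 injured adult members. The 16 tested G2 and M phase genes were all called higher in adult injury, with a median of 8.02, or 6.21 with the 7 genes at 0 in the adult control set to that floor, and 0 higher and 7 lower in neonatal injury (-0.87). The 10 lowest in adult injury were Hpse2, Timp4, Lrrtm3, Hs3st1, Tesc, Xirp1, Wfdc1, P2rx1, Sh3bgr and Ntf3. Timp4, a metalloproteinase inhibitor, had 17.6 CPM in the injured adult and 522 in the adult control, a ratio of -4.86 (-5.55 to -4.30). Hpse2, a heparanase relative, had 2.3 and 168 CPM (-5.97, -8.48 to -4.64), and Xirp1, a striated muscle actin-binding protein, had 3.06 and 69.1 CPM. When members with G2 and M phase UMIs were left out, a step added after the data were seen, the highest genes were Chl1, Ptx3, Mmp19, Mirg, Cyp26b1, Grip1, Dlk1, Srgap1, Dtx4 and Adra2a. Ptx3, a pentraxin of inflammation, then had 189 CPM in the injured adult and 0.355 CPM in the adult control, in 8 injured adult barcodes.

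In neonatal injury the highest were Nts, Hmcn2, Csmd1, Adra2a, Mir100hg, Kcnt2, Sntg2, Nmnat2, Clec2d and Adamts10. Nts, the peptide neurotensin, had 199 CPM in the injured neonate and 2.59 CPM in the neonate control (ratio 6.19, 5.31 to 7.42), and 6.13 and 8.64 CPM in the injured and control adult. Its UMIs lay in 27 of the 155 injured neonate members, and all filtered barcodes of that library had 5.64 CPM. Csmd1, a complement regulator, had 171 and 8.93 CPM in the injured and control neonate and 463 and 149 CPM in the injured and control adult. All filtered barcodes had 153 and 17.1 CPM of it in neonates and 37.6 and 96.6 CPM in adults. Its UMIs lay in 23 members of the injured neonate, 10 of the neonate control, 26 of the injured adult and 30 of the adult control. The lowest were Ibsp, Spp1, Cyp26b1, Cdca8, Ccl2, Cebpd, Zbtb16, Gdf15, Cck and Pde10a. Ibsp, a bone sialoprotein, had 0 UMIs in the injured neonate and 326 CPM in the neonate control, at least 99.7-fold lower, but its 1131 UMIs lay in 7 barcodes and its sign turned to 1.67 after thinning. Chondrocyte markers summed to 13 CPM in injured adult members, 294 in the adult control, 81.7 in the injured neonate and 1084 in the neonate control, and their part in this value was not tested. Cck, the peptide cholecystokinin, had 9.8 and 56.7 CPM in the injured and control neonate, a ratio of -2.46.

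Between controls, the highest genes in the adult were Pln, Timp4, Plin4, Hs3st1, Csmd1, Enpp2, Hpse2, Fgf14, Tgm2 and Hrct1. Timp4 had 522 CPM in the adult control and 6.62 CPM in the neonate control (6.27, 5.71 to 6.96), and Tgm2, a transglutaminase that crosslinks matrix, had 206 and 15.5 CPM. The lowest were Pclaf, Cdk1, Cenpf, Ccnb2, Cdca8, Ube2c, Top2a, Reln, Stmn1 and Ibsp, of which most serve cell division. Reln, reelin, is not a cell cycle gene and had 0.691 CPM in the adult control and 104 CPM in the neonate control, with 1.53 and 27.2 CPM in the injured adult and injured neonate. All filtered barcodes had 70.7 and 26.9 CPM of Reln in the adult and neonate control, so members ran against their library.

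Smooth muscle members were then compared with pericyte-rule barcodes of the same libraries (at least 3 Rgs5 and 1 Pdgfrb UMIs, under 3 Myh11 and under 5 Acta2), with the 4 libraries as replicates in edgeR's quasi-likelihood test and library as a block. Since the classes were split on Myh11 and Acta2, and the pericytes were also picked by Rgs5 and Pdgfrb, genes that go with these had to differ. Adjusted p under 0.05 was reached by 331 of 11266 genes in the higher direction (2.94%) and 208 in the lower (1.85%). Those counts were 151 and 81 without the injured neonate library, 151 and 82 without the neonate control, and 250 and 115 without the adult control. Contractile genes made up 23 of the higher ones, of 26 tested, and none was lower, with a median log2 fold change of 2.46 beside -0.01 for all genes. Cnn1 averaged 278 CPM in members and 0.217 CPM in pericyte-rule barcodes (log2 fold change 9.67 ± 0.42 SE, adjusted p = 9.44e-05 in edgeR, higher in 4 of 4 libraries). Myocd averaged 175 and 5.78 CPM (4.88 ± 0.31, edgeR adjusted p = 0.000332). Des did not pass, at 221 CPM in members and 129 CPM in pericyte-rule barcodes (0.68 ± 0.37, edgeR adjusted p = 0.386), and neither did Mcam, at 467 and 221 CPM (1.33 ± 0.37, edgeR adjusted p = 0.0908).

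The 10 lowest genes of that comparison, led by Clic5, Col22a1 and Prg4 (the protein lubricin), were not all kept by a narrower rule. Prg4 averaged 159 CPM in members and 8308 CPM in pericyte-rule barcodes, of which 2, 11, 3 and 11 had at least 3 Prg4 UMIs in the injured adult, adult control, injured neonate and neonate control. A narrower rule was therefore added after the data were seen, with at least 1 Kcnj8 or Abcc9 UMI, no Pdgfra UMI and under 3 Prg4 UMIs. Under it 493 of 10431 genes were higher (4.73%) and 310 lower (2.97%), contractile genes were higher in 22 of 26 and lower in 0, and Prg4 had a log2 fold change of 2.14, Pcsk6 of 2.09 and Cd55 of 2.17, against negative values under the wider rule. Prg4 was limited in these pericytes and not in members, so its turn was set by the rule. Genes that go with Prg4 or Pdgfra had to move the same way, so these 3 values are description only. Dnah12 was lower under both, at -3.89 against the narrower pericytes. Members were highest over these pericytes in Tmem132d, Cnn1, Actg2, Igfbp2, P2rx1, Spint2, Dtna, Ldb3, Kcnab1 and Col4a5, and lowest in Tmem273, Nr1h3, Dnah12, Zfp804b, Spaar, Dapk2, Acss3, Nostrin, Steap4 and G0s2.

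Some matrix and growth factor genes were higher in members than in the narrower pericytes. The narrower rule removed barcodes with Pdgfra or Prg4 from the pericytes and not from the members, and fibroblast and tenocyte markers were then higher in members in 7 of 11, with a median of 1.52. Their part in the matrix counts was not tested. Eln averaged 1899 CPM in members and 121 CPM in the narrower pericytes (3.91 ± 0.44, edgeR adjusted p = 0.000419), and Lama5 averaged 127 and 3.77 CPM (4.74 ± 0.40, edgeR adjusted p = 8.41e-05). Of 36 matrix genes, 11 were higher and 2 lower, against 1 and 2 under the wider rule with a median of -0.23, and Mgp, an inhibitor of calcification, was among the lower ones at 694 CPM in members and 3248 CPM in pericytes. Growth factor genes were higher in 9 of 21 and lower in 0, against 3 and 1 of 21 under the wider rule, among them the PDGF ligand Pdgfa at 353 and 172 CPM. Pericyte markers were lower in 6 of 11 and higher in 0. These pericytes were picked by Rgs5, Pdgfrb and Kcnj8 or Abcc9, so genes that go with those had to be higher in them. Steap4, a metal reductase, averaged 96.6 CPM in members and 715 CPM in the narrower pericytes (-2.84 ± 0.25, edgeR adjusted p = 0.000112), and Agtr1a, from the receptor list, averaged 27.8 and 204 CPM (-2.68 ± 0.29, edgeR adjusted p = 0.000325). Notch3 separated the classes under the wider rule (0.86 ± 0.18, edgeR adjusted p = 0.0335) and not under the narrower one (0.16 ± 0.21, edgeR adjusted p = 0.774), where it averaged 884 CPM in members and 869 CPM in pericytes.

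**Figure D5:**
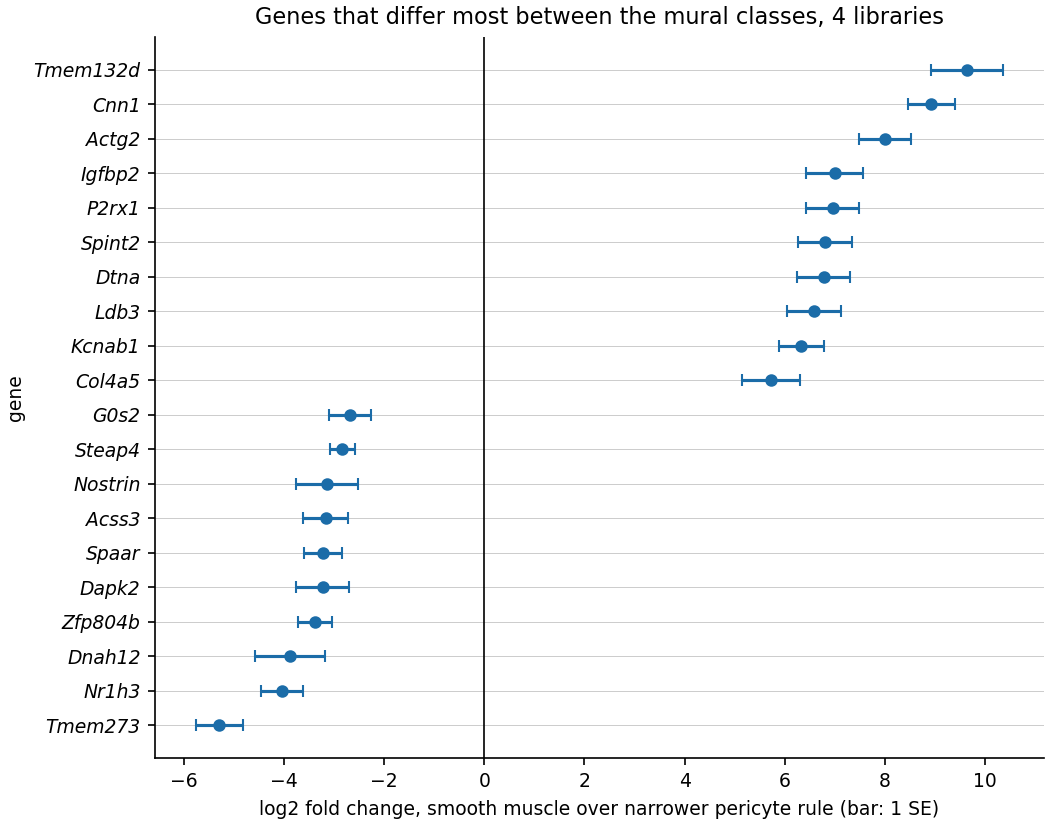
Log2 fold change of the 10 highest and 10 lowest genes in vascular smooth muscle members over narrower pericyte-rule barcodes, summed per library (4 libraries, edgeR quasi-likelihood test), with bars of 1 SE. Cnn1 stands at 8.93 and Steap4 at -2.84.

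Against fibroblast-rule barcodes (at least 2 Pdgfra UMIs, no Myh11 UMI, under 3 Rgs5 UMIs), 1448 of 16926 genes were higher in members (8.55%) and 2065 lower (12.2%) at an edgeR adjusted p under 0.05, and 779 and 986 without the injured neonate library and 944 and 1170 without the neonate control. These classes too were split on Myh11, and fibroblast-rule barcodes were also picked by Pdgfra and low Rgs5, so genes that go with these had to differ. Contractile genes were higher in 25 of 26, with a median of 4.61 beside -0.10 for all genes. Of 24 ion channel and calcium genes, 19 were higher and 0 lower. The highest gene was Kcnk3, a background potassium channel, at 138 CPM in members and 0.0978 CPM in fibroblast-rule barcodes (10.02, edgeR adjusted p = 9.49e-06), followed by Slc38a11, the olfactory-type receptor Or51e1 and Gja4, a gap junction protein of arteries. Matrix genes were lower in 25 of 36 and higher in 3, and Eln was among the higher ones at 1899 and 540 CPM (1.33 ± 0.28, edgeR adjusted p = 0.0127). Imprinted growth genes were lower in 12 of 16 and higher in 0. The lowest gene was Pi16, a marker of adventitial fibroblasts, at 14.2 CPM in members and 298 CPM in fibroblast-rule barcodes.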

How the data were processed

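Unique molecular identifier counts of 33696 genes in 4 single-cell libraries of digested Achilles tendon were deposited as filtered matrices, for which the file headers name Cell Ranger 8.0.1 and the submitters' processing notes name GRCm39. The members and gene lists were chosen with earlier results of these data known. Genes named from rankings were the 10 highest and 10 lowest that passed minimums on level (50 CPM, 20 UMIs and 5 barcodes in the higher library), lay outside the rule and were not below the level of all barcodes. Members of a library were summed. Between libraries, CPM ratios carry exact binomial 95% counting intervals and no test. Molecules of 1 library are not replicates, so intervals and floors (3 counts) cover counting error only. Between cell classes, sums of the 4 libraries were tested with edgeR 4.0.16 (quasi-likelihood, library as block, Benjamini-Hochberg over all genes) in R 4.3.3, checked on simulated data. Libraries are the only replicates, and no source says that each came from separate animals. Doublets were marked with scanpy 1.11.5 (Scrublet) and kept. Alternatives were looser and stricter rules, other barcode filters, doublets removed, thinning to 4000 UMIs, equal weights, TMM, RLE, 5 counts added, no filter on low genes, DESeq2 1.42.0, no block, and leaving out each library. Members without Pdgfra UMIs were tried too. Leaving out dividing members and narrowing the pericyte rule were added after the data were seen. Values of a few single list members are not reported here. For 26 symbols listed more than once the earliest entry was used. The libraries are the block because every class was measured in each.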

Additional observations from a re-analysis of the deposited data

Results flagged for a closer look

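Some genes differed between adult and neonatal injury in that the injured library was at least 2-fold above its control at one age and at least 2-fold below it at the other. The values below are the log2 ratio in adults minus the log2 ratio in neonates. None of these differences was tested, since each group is 1 library. Cell cycle genes were among them, with Cdca8 at 11.38, Pclaf at 10.79, Birc5 at 10.24, Cdk1 at 10.18, Nusap1 at 6.43 and Cdc20 at 4.82. Cdca8, Pclaf, Birc5 and Cdk1 had 0 UMIs in the adult control, so the size of their differences depends on the 0.5 counts added. At a floor of 3 counts they were at least 60.6-, 126-, 81.3- and 78.3-fold higher in adult injury. Immune signals and stress genes differed by 6.39 for Ccl7, 5.66 for Cxcl2, 4.08 for Ccl2 and 2.85 for Hsph1. Genes of matrix and modulated smooth muscle differed by 8.75 for Spp1, 7.13 for Cthrc1, 5.29 for Timp1 and 5.06 for Sox9. Growth and patterning genes differed by 7.88 for Cyp26b1, which breaks down retinoic acid, 6.22 for Dlk1 and 2.27 for Plagl1. In the other direction, lower in injured adult members and higher in injured neonate ones, stood genes of the contractile cell. The difference was -3.87 for Ldb3, -3.19 for Smtn and -6.02 for Pln. Hpse2 differed by -7.93, Dbp by -4.59, Pdgfd by -3.93, Per3, a clock gene, by -3.68 and Hey2 by -2.92. The neonatal directions of Birc5, Pclaf and Hpse2 and the adult direction of Cyp26b1 were not followed across the alternative settings. Among the directions that were followed, those of 5 genes did not hold in every setting at 1 of the ages. In adult injury, Spp1 turned to -0.52 without Pdgfra-positive members and -0.74 without dividing ones, Plagl1 to -0.15 without Pdgfra-positive members, Cdc20 to -1.57 without dividing ones, and Per3 to 0.65 after thinning. In neonatal injury, Nusap1 turned to 1.41 without dividing members. Dividing members were left out by their UMIs of G2 and M phase genes, Cdc20 and Nusap1 among them. The values of these genes in that setting are thus shaped by the filter and are description only. Members of the injured neonate had 81.7 CPM of chondrocyte markers and those of the neonate control 1084 CPM, and the neonate control differs in the sex of its cells from the other libraries. The part of either in these values was not tested.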

How the results depend on the processing

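The order of injured and control libraries in the share of smooth muscle held in all settings tried. With looser UMI minimums the injured neonate had 1.28%. With stricter ones the shares were 1.15% in the injured adult, 4.81% in the adult control, 0.726% in the injured neonate and 2.43% in the neonate control. Thinning gave 0.684% in the injured neonate and 2.36% in the neonate control. Without Pdgfra-positive members the neonate control had 2.55%, and without dividing members the injured adult had 0.886%, the injured neonate 0.86% and the neonate control 1.82%. Thinning gave 678 genes higher in neonatal injury, and 5 counts added gave 208 lower. Without the filter on low genes the counts of higher and lower genes were 7504 and 2786 in adult injury, 5086 and 1734 in neonatal injury, and 2864 and 5356 by age. In adult injury, thinning turned the medians of ion channel (0.09), vasoactive (0.02) and growth factor genes (0.51). Among values at least 2-fold apart, directions that turned were, in adult injury, the fibroblast and tenocyte marker median (0.64 without doublets, 0.46 thinned, 0.34 with equal weights), Dcn (0.20 without doublets), Il33 (-1.07) and Per3 (0.65) when thinned, Plagl1 (-0.15) and Spp1 (-0.52) without Pdgfra-positive members, and Cdc20 (-1.57) and Spp1 (-0.74) without dividing ones. In neonatal injury Ibsp turned when thinned (1.67) and Nusap1 without dividing members (1.41). Cdc20 and Nusap1 are among the genes by which dividing members were left out, so their turns in that setting are description only. By age the erythroid median turned (0.25 without Pdgfra-positive and 0.02 without dividing members), as did Ibsp (3.17) and Spp1 (0.45) when thinned, and Spp1 without Pdgfra-positive members (0.73). Cd55 (2.17), Pcsk6 (2.09) and Prg4 (2.14) turned against the narrower pericytes, whose rule itself limits Prg4. Higher and lower genes against pericyte-rule barcodes numbered 869 and 549 without a filter, 100 and 25 without the block, 549 and 427 thinned, and 493 and 310 with the narrower rule, and they ranged from 151 to 458 and from 81 to 282 with 1 library left out. Against fibroblast-rule barcodes they numbered 680 and 526 without the block, and ranged from 779 to 1458 and from 986 to 1785. The cause was not tested. Of 4170 gene ratios, 3229 stayed inside their counting interval, 929 moved outside it and 12 turned. No paired analysis was possible because each group is 1 library and the labels give no replicate numbers to pair.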
